A study of Homo sapiens with 6 samples.

Results

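The genes described here are 10 core genes of transforming growth factor beta (TGF-beta) signalling. They are the ligands TGFB1, TGFB2 and TGFB3, the receptor chains TGFBR1, TGFBR2 and TGFBR3, and the signal carriers SMAD2, SMAD3, SMAD4 and SMAD7. They were chosen by name, as all probe sets that the array annotation ties to one of these genes and to no other. That gave 32 probe sets for the 10 genes, of 54613 probe sets and 19777 genes tested, and no probe set that a member shares with another gene.

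All 6 arrays measured MDA-MB-231 cells, a human line established from breast cancer. One group of 3 arrays came from cultures given a small interfering RNA (siRNA) that targets SDC1, the gene of the heparan sulfate proteoglycan syndecan-1. The other group of 3 came from cultures transfected with a negative control siRNA, and the series design calls the replicates independent. Both groups went through transfection, and no untransfected cells were analysed here. The siRNA sequences, how many of them were used and the time between transfection and harvest are not stated in the labels. All results therefore stand on 1 cell line and on the comparison of one siRNA treatment with another.

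TGF-beta ligands are secreted in a latent form and, once released, bind the type II receptor chain, which TGFBR2 encodes. The type II chain then phosphorylates the type I chain, encoded by TGFBR1, and the type I kinase phosphorylates SMAD2 and SMAD3. These pair with SMAD4 and enter the nucleus to change transcription, while SMAD7 is an inhibitor that the pathway itself induces. TGFBR3, also called betaglycan, is a co-receptor that carries glycosaminoglycan chains and presents ligand, above all TGFB2, to the type II chain. In breast epithelium the pathway restrains growth early in tumour development and is associated with invasion in late disease.

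Each value below is a log2 distance from a probe set's own median of 6 arrays. Such values show how a transcript changed but carry no level, and genes cannot be ranked by abundance. Changes are SDC1 siRNA minus control siRNA on the log2 scale, given with the limma standard error (SE), n = 3 per group, and p-values adjusted by Benjamini-Hochberg over all features tested with a threshold of 0.05. SDC1 itself stood at 18.7% of control, with a change of -2.42 (SE 0.0972, adjusted p = 2.08e-06). The poly-A control RNAs, spiked into the samples before labelling, parted the arrays into a first part (SDC1 siRNA replicates 1 and 2, control replicate 1) and a second part (SDC1 siRNA replicate 3, control replicates 2 and 3). Both parts hold both groups, so the members' changes within each are given beside the main ones. A coarse level class (dimmest, middle or brightest) was read from the numeric step of the deposited values, and a gene's value is the mean of its probe sets in its brightest class. The class is read from the 3 arrays at or above the median, so a probe set that changed can enter it through the group where it is high. Where a class read from all 6 arrays picks other probe sets, that value is given too, an alternative chosen after seeing the data. Among markers of the line, VIM, CD44, EGFR and AXL had probe sets in the brightest class, as did ESR1, CDH1 and EPCAM, which are known to be low in this line, the endothelial marker PECAM1 and the fibroblast marker COL1A1. The fibroblast markers COL1A2 and DCN, the leukocyte markers PTPRC and CD3E, and PGR had none there. ALB and the endothelial CDH5 had all of theirs in the dimmest. A class is therefore no detection call. In RNA from a whole culture, fewer cells carrying a transcript and less of it per cell cannot be told apart.

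The receptors and SMADs moved in both directions. Of the 10 genes, 4 were higher (TGFB2, TGFB3, TGFBR1 and SMAD2), 4 were lower (TGFBR2, TGFBR3, SMAD3 and SMAD7) and 2 did not pass the test (TGFB1 and SMAD4). With the class read from all 6 arrays, 3 were higher and 4 lower, TGFB2 being the gene that lost its call. The share of all 19777 genes past the threshold was 28.2%, made up of 13.0% higher and 15.2% lower. The groups of arrays did not overlap for 8 of the 10, against 41.8% of all genes. Of the 32 probe sets 10 were higher and 8 lower, against 19.8% of all probe sets called, 9.70% higher and 10.1% lower, and 20 did not overlap, against 35.7%. By level class, 13 of 18 member probe sets in the brightest class were called, against 34.3% of all in that class, 5 of 11 in the middle class, against 17.8%, and 0 of 3 in the dimmest, against 3.54%. Of the 13, 207334_s_at, 203077_s_at, 226563_at and 228121_at are in the brightest class only through the group where they are high. Their change may have helped bring them into that class, which was not tested, so the count by class is no independent result. The shares of all probe sets rest on the same reading of the class. By role, 2 of 3 ligand genes were higher and none lower, 1 of 3 receptor genes was higher and 2 lower, and 1 of 4 SMAD genes was higher and 2 lower. The median change of the 10 genes was 0.014, against 0.0045 over all genes. TGFBR2, TGFBR3 and SMAD2 changed by at least 1 on the log2 scale in the gene fit, which 1.83% of all genes did with a call. With the class read from all 6 arrays SMAD2 fell short of 1.

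**Figure D1:**
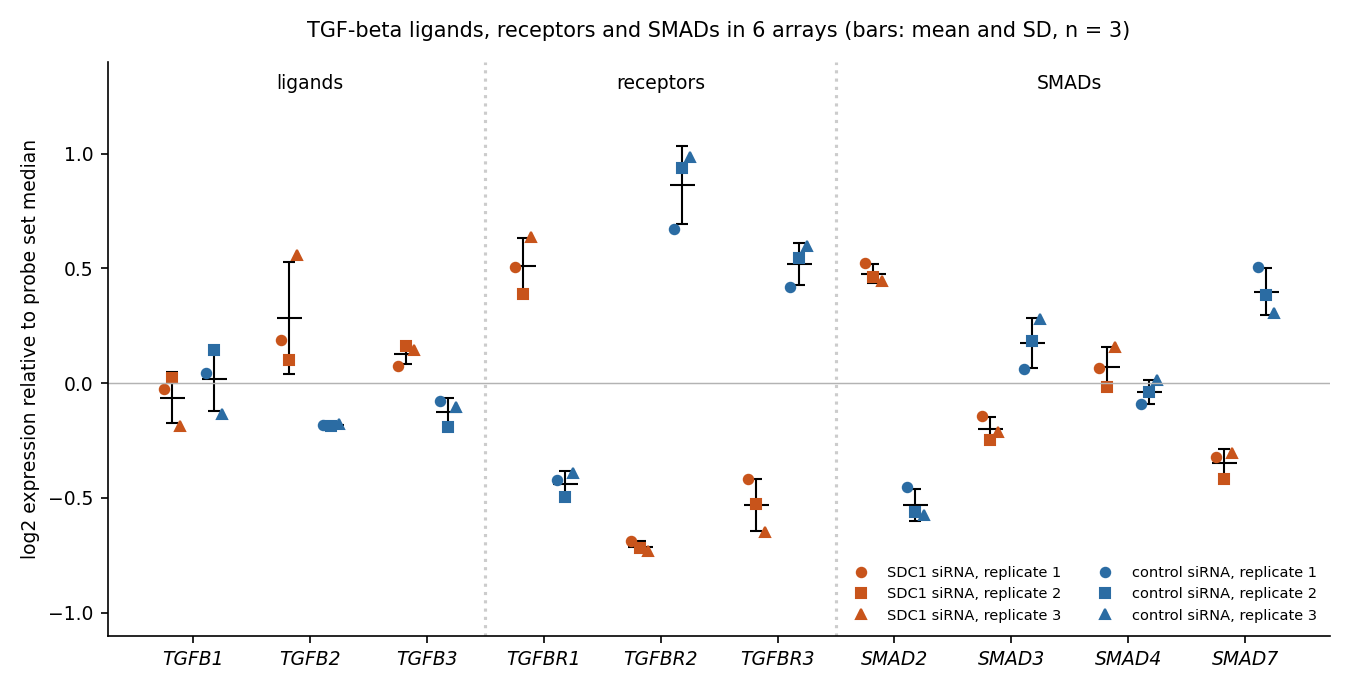
Log2 expression relative to the probe set median (vertical axis) for the 10 genes, with the 3 SDC1 siRNA arrays in orange to the left of the 3 control siRNA arrays in blue; horizontal marks and bars are the mean and SD of 3 arrays. The groups lie apart for 8 genes and overlap for TGFB1 and SMAD4, and TGFBR2 has the widest gap, with means of -0.71 after SDC1 siRNA and 0.86 after control siRNA.

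TGFBR2, the type II chain that binds ligand and starts the signal, had the largest change of the members. Its values after SDC1 siRNA were -0.69, -0.72 and -0.73, against 0.67, 0.94 and 0.99 after control siRNA. The SDC1 siRNA arrays all lay below the control arrays and close together, with an SD of 0.024, against 0.17 in the control arrays. The change was -1.58 (SE 0.0869, adjusted p = 6.93e-06), which left 33.5% of the control transcript. Both TGFBR2 probe sets fell, with changes of -1.69 for 207334_s_at and -1.46 for 208944_at. Of these 207334_s_at is in the brightest class only through the control arrays, and 208944_at, which is there on all 6 arrays, alone gives the gene -1.46 (adjusted p = 2.32e-06). Within the first and second spike-in part the gene stood at -1.37 and -1.69.

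TGFBR3 moved the same way. The co-receptor had values of -0.42, -0.53 and -0.65 after SDC1 siRNA, against 0.42, 0.55 and 0.60 after control siRNA, with no overlap. Its change was -1.05 (SE 0.0792, adjusted p = 3.65e-05), to 48.3% of control, and within the parts -0.89 and -1.22. Its probe sets fell too, with changes of -1.13 for 226625_at and -0.97 for 204731_at, and the difference between them was 0.16 (SE 0.11, adjusted p = 0.418).

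TGFBR1, the type I kinase that phosphorylates SMAD2 and SMAD3, moved the opposite way. Its values were 0.51, 0.39 and 0.63 after SDC1 siRNA, against -0.42, -0.50 and -0.39 after control siRNA. Every SDC1 siRNA array lay above every control array, and the change was 0.95 (SE 0.0758, adjusted p = 4.93e-05), a 1.93-fold rise, with 0.87 and 1.08 within the parts. This value comes from the brightest-class probe set, 224793_s_at. The middle-class probe set 206943_at stood at 0.48 (SE 0.153, adjusted p = 0.0587) with groups that did not overlap, and it passed the threshold with the spike-in part as a block (0.61, adjusted p = 0.00436), with the replicate number as a block (adjusted p = 0.0281) and without SDC1 siRNA replicate 2 (adjusted p = 0.0338). The dimmest-class probe set 236561_at stood at 0.20 (adjusted p = 0.471) and differed from 224793_s_at by 0.75 (adjusted p = 0.0152). With all 3 probe sets averaged the gene was at 0.54 (adjusted p = 0.00261).

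The TGFBR1 value minus the TGFBR2 value of the same array was 1.19, 1.11 and 1.37 after SDC1 siRNA, against -1.09, -1.44 and -1.38 after control siRNA. As levels are not in the data, these differences say how far the ratio of the transcripts shifted and not which transcript was more abundant. That they part the groups follows from the choice of a gene that rose and a gene that fell.

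The start sites of TGFBR1 and TGFBR2 are shown because these chains of one receptor complex moved apart, and those of SMAD2 and SMAD7 because a signal carrier and its inhibitor did. The sequences are from RefSeq on GRCh38.p14 and run from 250 bases before to 50 after the first start site listed for each gene. The table holds 8 start sites for TGFBR1, 2 for TGFBR2, 2 for SMAD2 and 3 for SMAD7, and which of them these cells use was not tested. Capitals mark every match, on either strand, to the GC box GGGCGG that Sp1 binds, the CAGA box CAGAC and the palindrome GTCTAGAC that SMADs bind, the AP-1 site TGANTCA and the box CCAAT. No base lies in more than one motif.
TGFBR1, chr9:99104863-99105162, plus strand: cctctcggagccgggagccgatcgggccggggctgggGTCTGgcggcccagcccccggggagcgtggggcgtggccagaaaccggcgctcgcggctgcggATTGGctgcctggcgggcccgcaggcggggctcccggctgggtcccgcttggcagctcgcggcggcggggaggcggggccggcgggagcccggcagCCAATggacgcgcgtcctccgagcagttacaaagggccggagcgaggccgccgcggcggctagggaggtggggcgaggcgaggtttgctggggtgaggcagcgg
TGFBR2, chr3:30606106-30606405, plus strand: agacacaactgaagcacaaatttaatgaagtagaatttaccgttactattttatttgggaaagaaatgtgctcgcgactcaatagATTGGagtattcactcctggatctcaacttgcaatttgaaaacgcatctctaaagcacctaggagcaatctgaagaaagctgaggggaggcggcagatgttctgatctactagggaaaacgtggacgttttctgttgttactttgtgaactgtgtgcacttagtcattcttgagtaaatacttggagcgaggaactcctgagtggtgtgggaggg
SMAD2, chr18:47930823-47931122, minus strand: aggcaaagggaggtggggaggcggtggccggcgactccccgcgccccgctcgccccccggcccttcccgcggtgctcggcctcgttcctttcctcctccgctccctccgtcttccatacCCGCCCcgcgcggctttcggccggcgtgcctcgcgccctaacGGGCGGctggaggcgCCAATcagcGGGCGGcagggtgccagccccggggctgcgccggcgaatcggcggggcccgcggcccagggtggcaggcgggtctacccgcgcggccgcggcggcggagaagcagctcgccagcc
SMAD7, chr18:48950916-48951215, minus strand: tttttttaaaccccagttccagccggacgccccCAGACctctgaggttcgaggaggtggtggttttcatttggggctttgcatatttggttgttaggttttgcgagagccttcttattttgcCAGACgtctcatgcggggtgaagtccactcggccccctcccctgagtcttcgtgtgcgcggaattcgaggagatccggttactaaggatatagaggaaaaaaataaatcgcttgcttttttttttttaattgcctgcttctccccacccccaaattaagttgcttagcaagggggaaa
The TGFBR1 and SMAD2 windows are both rich in G and C, at 78.7% each, whereas those of TGFBR2 and SMAD7 hold 42.3% and 48.3%, against a median of 58.3% over the first-listed promoters of 27305 genes. The other members did not keep to that split. The windows of TGFB2 and TGFB3, which were higher, hold 51.7% and 56.0%. Those of TGFBR3 and SMAD3, which were lower, hold 71.7% and 80.3%, and TGFB1 and SMAD4, which were not called, 77.3% and 66.7%. The TGFBR1 window has 1 CAGA box, 2 CCAAT boxes and no GC box by these letters. TGFBR2 has 1 CCAAT box, SMAD2 has 3 GC boxes and 1 CCAAT box, and SMAD7 has 2 CAGA boxes. Over the 10 members, 5 windows held GGGCGG and 5 held CAGAC, against 44.6% and 45.0% of all promoters, and 4 held CCAAT, against 35.7%. GTCTAGAC and TGANTCA were in none of the 10, against 0.201% and 7.76% of all. These matches describe letters in the windows and show no binding.

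SMAD2, one of the substrates of the type I kinase, was higher after SDC1 siRNA on all 6 of its probe sets. The gene values were 0.52, 0.46 and 0.44, against -0.45, -0.56 and -0.58 in control arrays, with no overlap and SDs of 0.041 after SDC1 siRNA and 0.069 after control siRNA. The change was 1.01 (SE 0.0626, adjusted p = 1.32e-05), a 2.01-fold rise, with 0.94 and 1.01 within the spike-in parts. The size of the rise depended on the probe set. Probe set 203075_at rose by 1.43 (SE 0.0814) and 203077_s_at by 1.35 (SE 0.107), 2.70-fold and 2.55-fold, while 203076_s_at rose by 0.45 (SE 0.0699, adjusted p = 0.00239), 1.36-fold. All of these were in the brightest class, 203077_s_at only through the SDC1 siRNA arrays, as was 226563_at. Without both, the gene value was 0.94 (adjusted p = 1.78e-05). Between them lay 226563_at at 0.80, 235598_at at 0.72 and 239271_at at 0.58. In a fit of the difference between probe sets within each array, 8 of the 15 SMAD2 pairs passed the threshold, against 14.4% of all 42435 probe set pairs of one gene (6.74% with the first probe set of the pair higher and 7.64% with it lower), and the pair 203075_at and 203076_s_at differed by 0.99 (SE 0.105, adjusted p = 0.000443). Pairs that share a probe set are not independent.

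SMAD3, the other substrate of the type I kinase, went the other way by a smaller amount. Its values were -0.14, -0.25 and -0.21 after SDC1 siRNA, against 0.060, 0.18 and 0.28 after control siRNA. The groups did not overlap, and the change was -0.38 (SE 0.0728, adjusted p = 0.00488), to 77.0% of control, with -0.26 and -0.45 within the parts and -0.42 (adjusted p = 0.00235) with the class read from all 6 arrays. Probe sets 205398_s_at, 205397_x_at and 218284_at fell, with changes of -0.54, -0.48 and -0.29, and the _x_ in the second name marks a design that may bind related transcripts. Probe set 205396_at was at -0.30 (SE 0.186, adjusted p = 0.329) with a wide spread, an SD of 0.23 after SDC1 siRNA and 0.38 after control siRNA. Without SDC1 siRNA replicate 2 or 3 or control replicate 1 or 2, the call on 218284_at was lost (adjusted p from 0.0556 to 0.0838), while the SMAD3 gene value passed the threshold in each of the 6 fits that left out an array.

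SMAD4, the shared partner that both substrates need, showed no change that passed the test. Its gene values were 0.066, -0.015 and 0.16 after SDC1 siRNA, against -0.089, -0.037 and 0.015 after control siRNA, and the groups overlapped. The change was 0.11 (SE 0.0672, adjusted p = 0.295), with a 95% interval from -0.047 to 0.26 and values of 0.11 and 0.17 within the parts. A rise as large as that of SMAD2 lies outside this interval. Its other 4 probe sets ranged from -0.040 to 0.27, the highest being 1565703_at (adjusted p = 0.0573, with 0.0439 when probe sets of the dimmest class were left out of the fit and 0.0479 without control replicate 3).

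SMAD7, the inhibitor that recruits ubiquitin ligases to the type I receptor, fell on its single probe set, 204790_at, which is of the middle class. Its values were -0.32, -0.42 and -0.30 after SDC1 siRNA, against 0.51, 0.39 and 0.30 after control siRNA, with no overlap. The change in the gene fit was -0.75 (SE 0.0715, adjusted p = 0.00012), to 59.6% of control, with -0.87 and -0.65 within the parts. SMAD2, SMAD4 and SMAD7 all lie on chromosome 18. In the RefSeq table only 2 protein-coding genes, ZBTB7C and CTIF, lie between SMAD2 and SMAD7. ZBTB7C was at -0.23 (adjusted p = 0.0405) and CTIF at 0.29 (adjusted p = 0.00924). DYM, next to SMAD7 on its other side, was at -0.43 (adjusted p = 0.00111), and SKOR2, next to SMAD2 on its other side, had no gene value. These neighbours are named here for their position and outside the rule for named genes.

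Within single arrays, SMAD2 minus SMAD3 was 0.67, 0.71 and 0.66 after SDC1 siRNA, against -0.51, -0.75 and -0.86 after control siRNA. SMAD2 minus SMAD7 was 0.84, 0.88 and 0.75 after SDC1 siRNA, against -0.96, -0.95 and -0.88 after control siRNA. The SDC1 siRNA arrays lay above the control arrays in both differences, which the choice of genes that moved apart fixes.

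**Figure D2:**
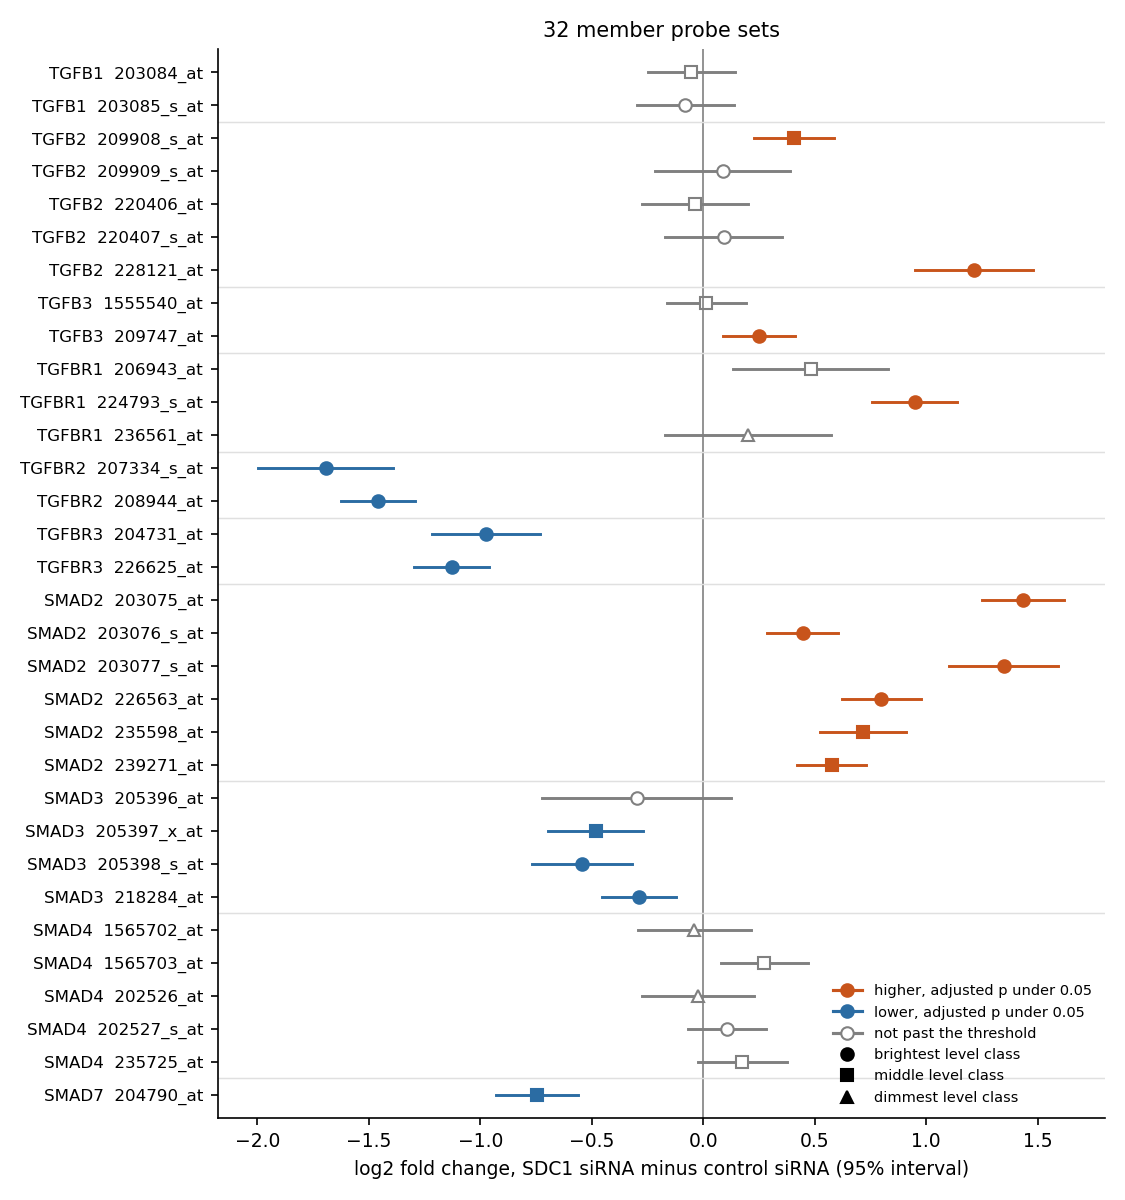
Log2 change, SDC1 siRNA minus control siRNA, with its 95% interval (horizontal axis) for each of the 32 probe sets (rows, named by gene and probe set); colour marks the direction of the 18 that passed the threshold and the symbol the level class. All 6 SMAD2 probe sets lie above 0 and all 4 TGFBR2 and TGFBR3 probe sets below it, while the 5 TGFB2 probe sets run from -0.036 to 1.22.

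Among the ligands, TGFB1 did not pass the test. Its values were -0.024, 0.024 and -0.19 after SDC1 siRNA, against 0.042, 0.14 and -0.13 after control siRNA, which overlap. The change was -0.080 (SE 0.0891, adjusted p = 0.575), with a 95% interval from -0.28 to 0.12 and values of -0.042 and -0.19 within the parts, and its second probe set, 203084_at, was at -0.053 (adjusted p = 0.739).

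TGFB2, the ligand that depends most on betaglycan, gave different answers on different probe sets. Probe set 228121_at had values of 0.54, 0.49 and 0.91 after SDC1 siRNA, against -0.55, -0.67 and -0.49 after control siRNA. It rose by 1.22 (SE 0.116, adjusted p = 0.000187), 2.32-fold, with 1.07 and 1.49 within the parts. Probe set 209908_s_at rose by 0.41 (SE 0.0793, adjusted p = 0.00721). The other probe sets did not pass, with 209909_s_at at 0.086 (adjusted p = 0.726), 220407_s_at at 0.091 (adjusted p = 0.659) and 220406_at at -0.036 (adjusted p = 0.862). Of these, 209909_s_at and 220407_s_at are in the brightest class on all 6 arrays, whereas 228121_at is there only through the SDC1 siRNA arrays and in the middle class over all 6. Of the 10 TGFB2 pairs 5 passed the test of their difference, against 14.4% of all 42435 probe set pairs of one gene. Among them were all 4 that hold 228121_at, which are not independent of each other. Probe set 228121_at exceeded 209909_s_at by 1.13 (SE 0.107, adjusted p = 0.000283). SDC1 siRNA replicate 3 was the highest of all arrays on 4 of the 5 probe sets, with 0.42 on 209909_s_at, against 0.017 and -0.14 in replicates 1 and 2. Without that replicate the changes of 209909_s_at and 220407_s_at were -0.073 and -0.033.

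The TGFB2 gene value, a mean of 228121_at, 209909_s_at and 220407_s_at, was 0.46 (SE 0.111, adjusted p = 0.0136). The call rests on 228121_at, which its own rise may have brought into the mean. Without it, as the class over all 6 arrays has it, the gene stood at 0.089 (adjusted p = 0.63), and with all 5 probe sets averaged at 0.35 (adjusted p = 0.0159). Its arrays stood at 0.19, 0.10 and 0.56 after SDC1 siRNA, against -0.18, -0.19 and -0.18 after control siRNA. It was 0.33 in the first spike-in part and 0.74 in the second, which holds SDC1 siRNA replicate 3.

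TGFB3 showed a small rise that did not hold in every fit. Its values were 0.076, 0.16 and 0.14 after SDC1 siRNA, against -0.076, -0.19 and -0.11 after control siRNA, without overlap. The change was 0.25 (SE 0.0615, adjusted p = 0.0152), from probe set 209747_at, with 0.20 and 0.29 within the parts, while 1555540_at was at 0.014 (adjusted p = 0.933). The gene call was lost with both probe sets averaged (0.13, adjusted p = 0.099), without control replicate 2 (adjusted p = 0.0565) and without SDC1 siRNA replicate 2 (adjusted p = 0.0581). In the probe set fit the call on 209747_at was lost whichever array was left out (adjusted p from 0.0549 to 0.121), with the spike-in part as a block (adjusted p = 0.0721) and with the replicate number as a block (adjusted p = 0.0747).

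**Figure D3:**
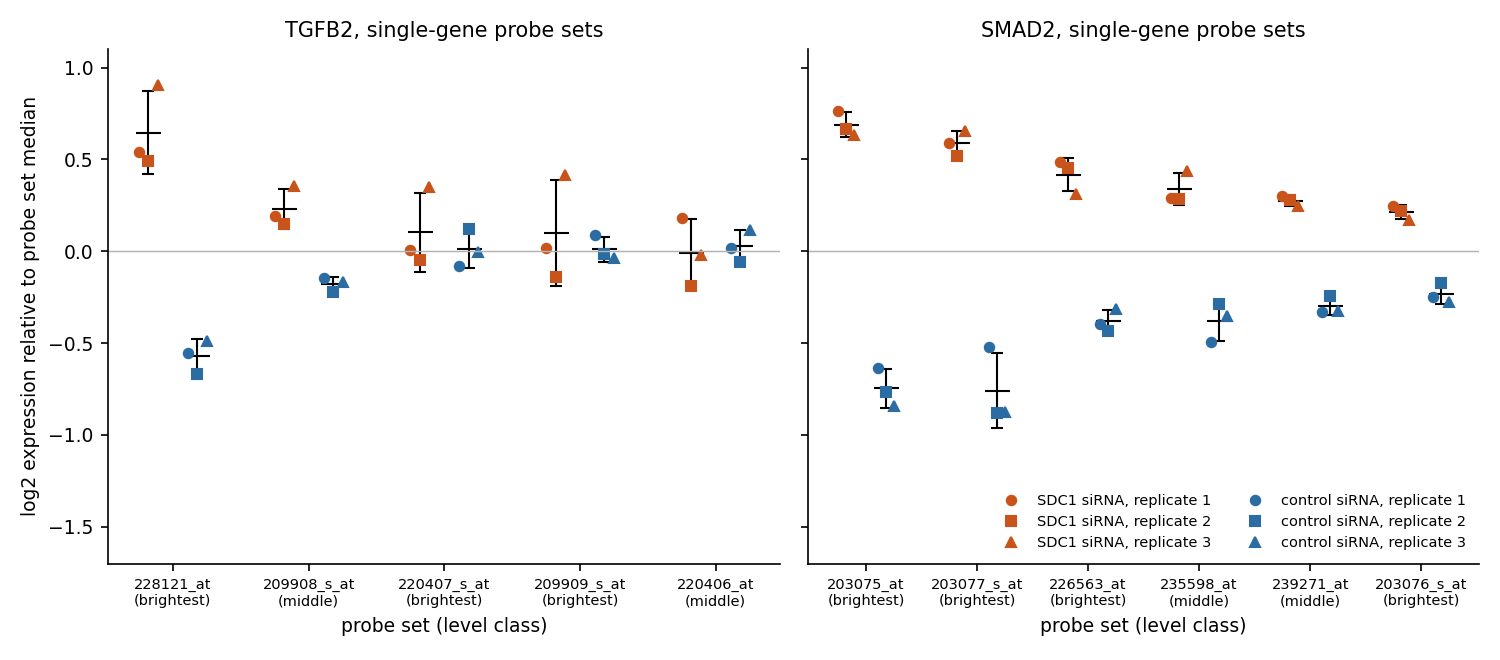
Log2 expression relative to the probe set median (vertical axis) for each probe set of TGFB2 (left) and SMAD2 (right), SDC1 siRNA arrays in orange to the left of control siRNA arrays in blue; marks and bars are the mean and SD of 3 arrays. The groups lie apart on all 6 SMAD2 probe sets, but on only 2 of the 5 TGFB2 probe sets, and SDC1 siRNA replicate 3 (triangle) is the highest array on 4 of the TGFB2 probe sets.

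Other genes of the pathway were read from 6 lists arranged by role, holding 111 genes of which 104 were measured by single-gene probe sets. Of these, 14 were higher and 33 lower, against 13.0% and 15.2% of all genes, and their median change was -0.052, against 0.0045 over all genes. The lists were written with earlier results of these data known. Their counts and medians therefore describe the chosen genes and do not test whether the pathway as a whole was lowered. The shares of 13.0% higher and 15.2% lower over all genes also apply as the comparison for the counts of each list below. The other 7 genes were not analysed here. The gene values quoted rest on the brightest-class probe sets, and probe sets of the opposite sign are given for the genes named.

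Genes that store or release latent TGF-beta included 1 of 14 higher and 3 lower, with a median of -0.051. FURIN, the convertase that cleaves the ligand precursor, fell by 0.48 (SE 0.0794, adjusted p = 0.00215), and LTBP2, of the latent TGF-beta binding protein family, by 0.34. The protease BMP1 fell by 0.22, with a probe set at 0.058, and the integrin subunit ITGB5 rose by 0.51 (SE 0.0835, adjusted p = 0.00214), with one of its probe sets at 0.076. LTBP3 was at 0.32 (adjusted p = 0.0829) and THBS1, the latent TGF-beta activator thrombospondin-1, at -0.18 (adjusted p = 0.0767), with single THBS1 probe sets from -0.66 to 0.21. Without SDC1 siRNA replicate 3, LTBP3 (0.45, adjusted p = 0.0122) and THBS1 (-0.23, adjusted p = 0.0382) passed the threshold, and BMP1 lost its call without that replicate, SDC1 siRNA replicate 1 or control replicate 1 or 2 (adjusted p from 0.0528 to 0.0731). With the replicate number as a block LTBP3 passed too (adjusted p = 0.0139).

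Among co-receptors, receptor adaptors and turnover genes 2 of 21 were higher and 6 lower, with a median of -0.046. SMURF2, the ubiquitin ligase that SMAD7 brings to the receptor, rose by 0.65 (SE 0.0565, adjusted p = 7.43e-05) and by as much as 1.01 on a single probe set. TGFBRAP1, a receptor-associated protein, rose by 0.43, although one of its probe sets was at -0.0083. DAB2, an endocytic adaptor that binds the receptors and SMADs, fell by 0.51 (SE 0.0726, adjusted p = 0.00102), with probe sets from -0.54 to 0.14, and the deubiquitinase UCHL5 by 0.40. The decoy receptor BAMBI fell by 0.28 (adjusted p = 0.0363), a call that held only without control replicate 3 among the 6 fits that left out an array (adjusted p up to 0.107). HGS, an endosomal adaptor, fell by 0.31 on one probe set, whereas its other stood at 0.44, and the mean of both was 0.064 (adjusted p = 0.608).

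SMAD partners, co-activators and co-repressors had 3 of 20 higher and 6 lower, with a median of -0.067. YAP1, a transcriptional co-activator that can bind SMADs, fell by 1.11 (SE 0.0642, adjusted p = 8.95e-06). The co-repressor TGIF1 fell by 0.67 (SE 0.0703, adjusted p = 0.000201), DACH1, a co-repressor with a probe set at 0.021, by 0.38 and SNW1, a co-activator, by 0.27. PPM1A, a phosphatase that acts on SMAD2 and SMAD3, rose by 0.47 (SE 0.0587, adjusted p = 0.000471), with probe sets from -0.16 to 0.89. The transcription factor RUNX2 rose by 0.37, with probe sets from -0.12 to 0.75. With the class read from all 6 arrays PPM1A was at 0.29 (adjusted p = 0.00593) and RUNX2 at 0.75 (adjusted p = 0.000253).

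The SMADs of the bone morphogenetic protein branch also moved apart. SMAD1 fell by 0.53 (SE 0.0673, adjusted p = 0.000543), with a probe set at 0.081, and SMAD5 rose by 0.25 (SE 0.0574, adjusted p = 0.0118, or 0.17 with an adjusted p of 0.0566 over all its probe sets, the lowest at -0.037). SMAD9 was at -0.067 (adjusted p = 0.52) on its brightest-class probe set and at 1.00 on its other, so that the mean of both was 0.47 (adjusted p = 0.00472), which the class over all 6 arrays also takes. Among genes of signalling beside the SMADs 1 of 13 was higher and 4 lower, with a median of -0.051. MAP3K7, the kinase TAK1, rose by 0.32, while the adaptors TRAF4 and TRAF6 fell by 0.24 and 0.21. The kinase ROCK1 fell by 0.51, with a probe set at 0.017. The kinase MAPK8 fell by 0.36, with probe sets from -0.95 to 0.040, and stood at -0.061 (adjusted p = 0.632) with the class read from all 6 arrays. MAP2K4, with a probe set at -0.024, was at 0.20 (adjusted p = 0.0538, with 0.0472 without SDC1 siRNA replicate 3 and 0.0438 with the replicate number as a block). The call on TRAF6 was lost whichever array was left out (adjusted p from 0.0517 to 0.109), and that on TRAF4 without SDC1 siRNA replicate 1 or control replicate 1 (adjusted p = 0.0594 and 0.0550).

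Genes known as TGF-beta targets had 6 of 33 higher and 13 lower, with a median of -0.053. The list holds genes that TGF-beta induces and a few that it represses. HMGA2, a chromatin protein, fell by 2.43 (SE 0.0652, adjusted p = 5.89e-07) on its brightest-class probe set, but single probe sets reached 0.59 and the mean of all 9 was -0.19 (adjusted p = 0.0425). ADAM19, a membrane protease, fell by 1.31, with 0.028 on its other probe set and -0.64 (adjusted p = 0.000202) for both together, as the class over all 6 arrays has it. Genes with a single probe set were CDKN1A, the cell cycle inhibitor p21, which fell by 1.12 (SE 0.0754, adjusted p = 2.1e-05), CCN2, or connective tissue growth factor, which fell by 0.79 (SE 0.0786, adjusted p = 0.000145), and ITGA5, the fibronectin receptor subunit, which fell by 0.62. TAGLN, the actin-binding protein transgelin, rose by 1.36 (SE 0.0944, adjusted p = 2.33e-05), with a probe set at -0.083. Many pathways besides TGF-beta act on these genes, and their link to the receptor changes was not tested.

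**Figure D4:**
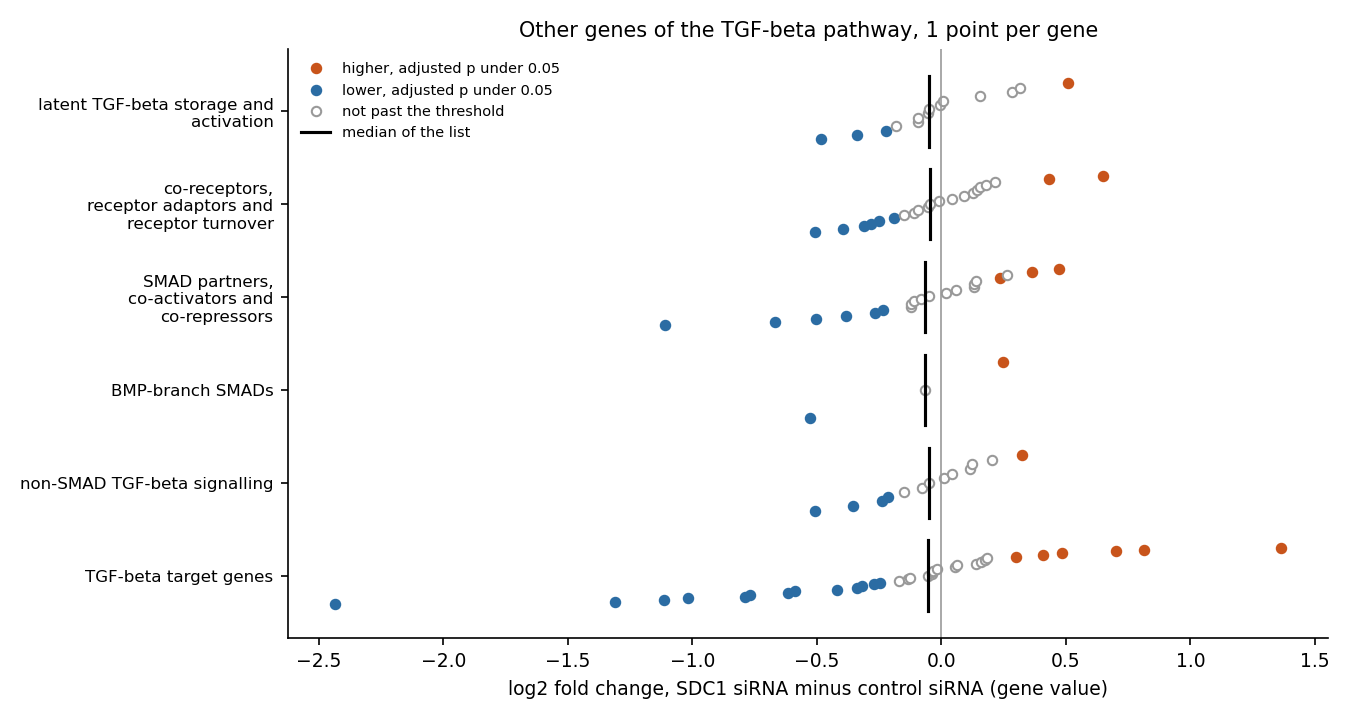
Log2 change, SDC1 siRNA minus control siRNA (horizontal axis), of 104 other pathway genes in 6 lists by role (rows, 1 point per gene, spread vertically by rank); filled orange and blue points passed the threshold as higher or lower and black bars are list medians. Medians lie between -0.067 and -0.046, and the target genes spread most widely, from HMGA2 at -2.43 to TAGLN at 1.36.

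For the 3 members that changed by at least 1 in the gene fit, the genes nearest in pattern over the 6 arrays were found. The measure was the root mean square difference of centred gene values. SMAD2 is among the 3 only with the reported class, as it fell short of 1 with the class read from all 6 arrays. Nearest to TGFBR2 were TLR4 (0.0701), POU3F2 (0.0747) and DLGAP1-AS2 (0.0777), with changes of -1.48, -1.60 and -1.50. Nearest to TGFBR3 were IGF2BP3 (0.0298), SLC39A11 (0.0611) and SYTL3 (0.0679), with changes of -1.06, -1.11 and -1.01. Nearest to SMAD2 were TACC2 (0.0256), CELSR2 (0.0296) and TCFL5 (0.0369), with changes of 0.98, 1.01 and 1.05. With 6 arrays in 2 groups, this measure cannot tell a shared pattern from a group difference of like size.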

How the data were processed

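RNA from 6 cultures was hybridised as biotin-labelled cRNA to Affymetrix arrays, 1 per sample. The log2 values used were deposited by the authors. They were made with RMA (robust multi-array average), per the submitters' processing notes, and no further step is recorded there. They are centred: each probe set's 6 values have a median within 1e-06 of 0, so levels are not in the data. No test included the 62 Affymetrix control probe sets. Level classes held 11825, 25881 and 16969 probe sets, dimmest first. The middle and brightest classes were read from numeric steps that fit log2 levels of 4 to 8 and 8 to 16, within 0.1 step. The dimmest class, taken as levels of 2 to 4, holds the probe sets that fit neither step. Gene names came from the platform annotation, updated by gene ID through a RefSeq table of GRCh38.p14.

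Moderated 2-sided tests were run with limma 3.58.1 (lmFit, eBayes; R 4.3.3), with no covariates, over 54613 probe sets, over 19777 genes (mean of brightest-class probe sets, _x_at only where there was no other) and over 42435 within-gene probe set pairs. On data simulated for the gene comparison, 68 of 100 changes of 0.5 and 95 of 100 changes of 1 were recovered among 19777 genes, and 10 unchanged genes were called. For probe sets 39 and 85 of 100 were recovered, and for probe set pairs 3 and 63, with 3 unchanged features called in each. Each simulation changed 200 features, a far smaller share than was called in the data, where 28.2% of genes passed. Recovery and false calls depend on that share, so these counts do not carry over to the calls reported. The number of arrays limits the precision.

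Named genes were all members, SDC1, up to 6 genes of each pathway list by lowest p, and up to 3 genes nearest in pattern to each member that changed by at least 1. The members and lists were chosen with earlier results of these data known. Same-numbered replicates deviated together with correlations of -0.0085, 0.044 and 0.091, so the numbers were not taken as pairs.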

Additional observations from a re-analysis of the deposited data

How the results depend on the processing

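The alternatives were the replicate number as a block, the spike-in part as a block, each array left out in turn, quantile normalization, centring of arrays on their medians, a robust prior, the dimmest class left out and, for genes, all probe sets averaged or, added after seeing the data, the level class read from all 6 arrays. The count of member genes called was 8 in the fit as reported, 7 to 8 with an array left out, 7 with all probe sets averaged, 7 with the class from all 6 arrays (TGFB2 lost, at 0.089) and 8 under the others. Member probe sets called were 18, and 16 to 18 with an array left out, 18 with the replicate block and 19 without the dimmest class. Pathway genes called were 47, 38 to 46 with an array left out and 49 with the class from all 6 arrays (45 shared). Member pairs called were 14, and 10 to 14 with an array left out. With the replicate block, 8 member genes, 48 pathway genes and 13 member pairs were called. Among the probe sets the block took away the call of 209747_at (TGFB3, adjusted p = 0.0747) and added 206943_at (TGFBR1, adjusted p = 0.0281). No member gene changed sign. Probe sets near 0 did with an array left out: 209909_s_at (-0.073 to 0.21), 220406_at (-0.13 to 0.055), 220407_s_at (-0.033 to 0.17), 1555540_at (-0.030 to 0.064), 236561_at (-0.016 to 0.33), 1565702_at (-0.14 to 0.076) and 202526_at (-0.079 to 0.075). With the spike-in part as a block 202526_at was at 0.023. With all probe sets averaged, HGS was at 0.064 and SMAD9 at 0.47, and SMAD9 was at 0.47 too with the class from all 6 arrays. That class moves out of the brightest class those probe sets that fit it on their 3 highest arrays but not on all 6. Some of these reach it only in the group where they are high. Probe set 205396_at (SMAD3) is moved out too, although its groups overlap. The cause of the other changes was not tested. The values hold no background signal, so what dim probe sets could show is not known.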
